A study of Mus musculus with 12 samples.

Results

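The genes described here are 10 members of bone morphogenetic protein (BMP) signalling in mouse quadriceps, chosen by gene name. They are the ligand gene Bmp4, the receptor gene Bmpr2, the signalling SMAD genes Smad1 and Smad5, the 4 genes of the ID proteins (Id1, Id2, Id3 and Id4), and the inhibitory SMAD genes Smad6 and Smad7. All probes that carry one of these names in the array annotation were taken, which gave 17 probes, of which 16 were measurable. Every member had at least 1 measurable probe, so 10 of the 16552 genes and unnamed probes measured in these samples belong here.

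RNA was hybridised to 12 one-colour Agilent mouse arrays, each holding the quadriceps RNA of a different C57BL/6J male aged 13 weeks. The exercised group was 6 mice that ran on a motorised treadmill in a training programme of 4 weeks, and their muscle was taken 3 h after the last bout. They were compared with 6 sedentary mice of the same strain, sex and age. No clock time is given for either group, and trained mice were sampled after a bout only, so the last bout and the weeks of training cannot be told apart. Mice are called here by the set (g) and animal (a) numbers of their titles, whose meaning is not stated.

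BMPs are secreted ligands that bring type I and type II receptor kinases together, and the active receptor phosphorylates SMAD1, SMAD5 and SMAD9, which join SMAD4 and enter the nucleus. The ID genes are among the best known direct targets: ID proteins have a helix-loop-helix but no DNA-binding region, and they bind E proteins and so hold back factors such as MyoD. Smad6 and Smad7 are targets too and feed back on the pathway, SMAD6 mainly on BMP signals and SMAD7 on BMP and TGF-beta signals. In skeletal muscle BMP signalling is known for supporting fibre size and the growth of muscle stem cells, and in the blood vessels of the tissue Id1, Id3 and Smad6 are known as endothelial BMP targets.

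The upstream sequences of 3 targets are shown because they carry the kinds of letters through which the pathway is known to reach its genes. They come from RefSeq on build GRCm38.p6, run 5′ to 3′ on the strand of the gene, and cover the 250 bases before the annotated start. Smad6 is given with the first 4 bases after it, since a motif spans the start. Capitals mark matches to 3 motifs, searched on both strands, which do not overlap one another here. The first is GGCGCC, the second is the related motif GGAGCC (it appears as GGCTCC when it lies on the other strand), and the longest is GTCTAGAC. The Id2 window is chr12:25096093-25096342 (minus strand), that of Id3 is chr4:136143572-136143821 (plus strand) and that of Smad6 is chr9:64022056-64022309 (minus strand).
Id2: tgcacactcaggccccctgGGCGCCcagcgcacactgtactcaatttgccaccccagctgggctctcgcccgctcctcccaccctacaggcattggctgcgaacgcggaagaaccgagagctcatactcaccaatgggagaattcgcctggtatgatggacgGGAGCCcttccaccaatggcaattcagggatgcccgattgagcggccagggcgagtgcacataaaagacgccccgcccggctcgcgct
Id3: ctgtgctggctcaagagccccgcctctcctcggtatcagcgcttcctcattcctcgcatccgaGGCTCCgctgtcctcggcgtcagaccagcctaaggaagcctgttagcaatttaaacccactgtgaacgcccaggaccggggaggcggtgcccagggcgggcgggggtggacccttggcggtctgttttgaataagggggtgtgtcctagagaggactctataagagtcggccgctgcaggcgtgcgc
Smad6: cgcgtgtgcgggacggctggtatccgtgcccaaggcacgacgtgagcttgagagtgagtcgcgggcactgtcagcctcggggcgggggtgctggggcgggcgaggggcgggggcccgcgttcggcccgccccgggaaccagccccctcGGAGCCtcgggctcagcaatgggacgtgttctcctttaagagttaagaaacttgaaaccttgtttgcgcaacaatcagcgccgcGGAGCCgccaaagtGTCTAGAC
The RefSeq table held a start region for 8 of the 10 members. Those of Id1 and Smad7 were missing, so these genes were not searched. Over the full 300 bases of an entry, which reach 50 bases past the start, GGCGCC was found in 11.9% of 32851 entries, GGAGCC in 30.8% and GTCTAGAC in 0.213% (70 entries). GGCGCC occurred in the first entries of Id2, Id4, Smad5 and Bmpr2, and GGAGCC in those of Id2, Id3, Id4, Smad6 and Bmp4. Smad6 held GGAGCC at 2 places and, of the 8 members searched, was the one with GTCTAGAC. A match describes these letters and no more.

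What the array reads of 4 members is shown by their probes, which lie in the coding part of the transcript. The array annotation places them on build mm9. The Id3 probe (A_51_P380178) maps to chr4:135700075-135700249, a span 115 bases longer than the probe, and the Id2 probe (A_51_P219074) to chr12:25780183-25780530, a span 288 bases longer, so that each joins 2 separate stretches of the genome. The probes of Smad6 (A_51_P427926, chr9:63801378-63801437) and Bmp4 (A_51_P383741, chr14:47003802-47003861) are unbroken.
Id3: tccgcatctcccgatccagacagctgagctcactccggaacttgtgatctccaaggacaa
Id2: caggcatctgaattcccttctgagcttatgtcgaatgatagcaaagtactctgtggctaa
Smad6: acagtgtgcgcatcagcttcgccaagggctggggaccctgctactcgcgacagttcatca
Bmp4: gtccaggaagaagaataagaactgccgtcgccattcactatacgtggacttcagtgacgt

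Across the whole array, 601 of 16552 genes and unnamed probes differed between exercised and sedentary muscle (limma, Benjamini-Hochberg adjusted p below 0.05), which is 3.63% of those tested, with 1.79% higher and 1.84% lower in exercised mice. The median log2 difference over all genes was -0.03. Between 22413 and 24856 probes were well above background on the exercised arrays and between 21704 and 25229 on the sedentary arrays. There were 3 slides of 4 arrays: slide 1 carried 1 exercised mouse and 3 sedentary mice, slide 2 carried 3 exercised mice and 1 sedentary mouse, and slide 3 carried 2 of each group. All 12 muscle fibre markers, among them Acta1, Ckm and Myh4, were well above background on all 12 arrays. RNA came from whole muscle, so fewer cells of a type and less RNA per cell cannot be told apart in any of the values that follow.

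None of the 10 members passed the threshold in limma (0 of 10 at an adjusted p below 0.05, against 3.63% of all genes). At an unadjusted p below 0.05 there were 3, Id1, Id3 and Smad7, all higher in exercised muscle, where 16.2% of all genes reached that level. Id1 was the nearest to a call, with a level 1.93-fold that of sedentary muscle and an adjusted p of 0.0530, just above the threshold of 0.05, so it did not pass. In 6 members the mean was higher in exercised mice and in 4 lower, and the median log2 difference of the 10 was 0.14. In no member were the groups fully apart, while 3% of all genes (497) had groups that did not overlap.

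**Figure D1:**
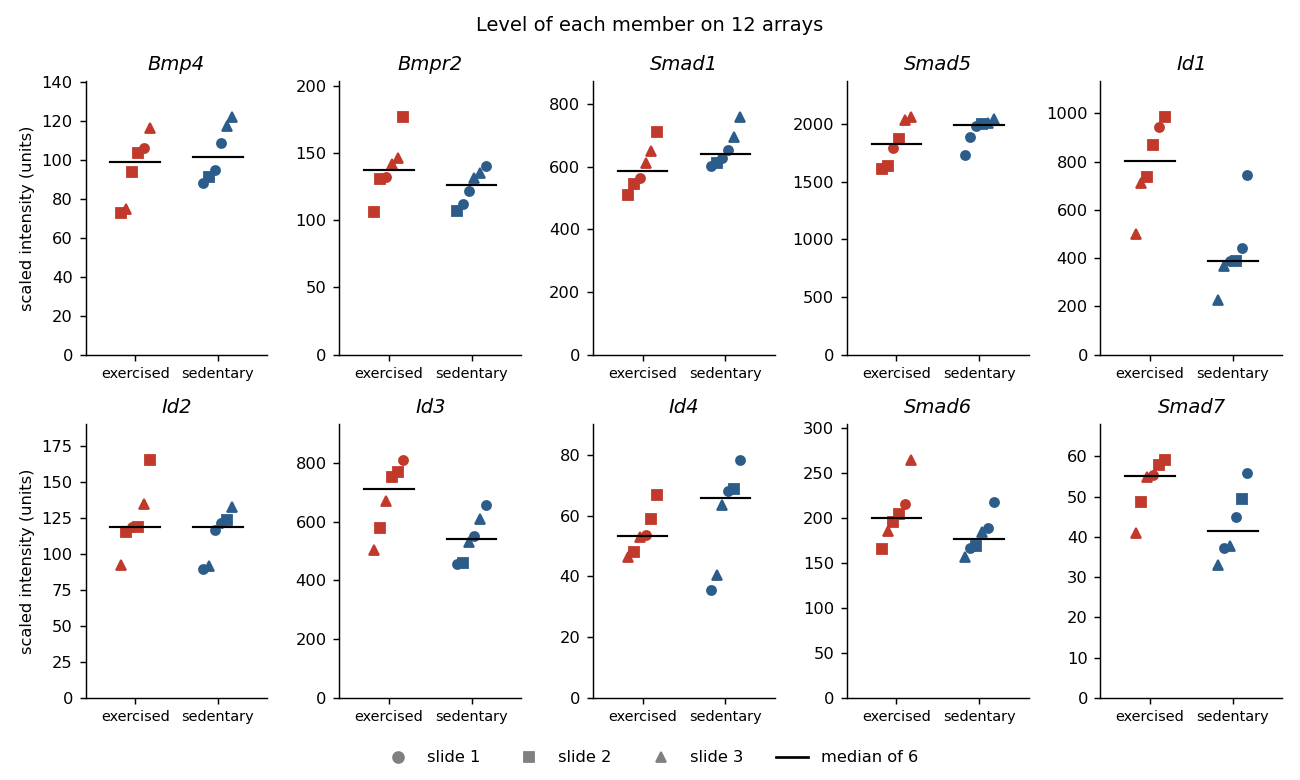
Scaled intensity of the probe that represents each member, on axes that start at 0, with 1 point per mouse, exercised left and sedentary right, and the slide given by the shape of the point. The bar is the median of 6 mice. Id1 is the member in which 5 of 6 sedentary mice lie below the lowest exercised mouse, at 499 units; in the other members the groups overlap more.

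Levels are spot intensities scaled to a common 75th percentile, given as lowest, median and highest of 6 mice, and no level is set against that of another probe. Bmp4, the ligand, was read by 10 spots of 1 probe. Its level was 73.0, 98.8 and 116.6 units in exercised mice and 88.1, 101.7 and 122.2 units in sedentary mice. The groups overlapped nearly throughout, with 2 exercised mice below the lowest sedentary one. The log2 difference was -0.14 (SE 0.13, n = 6 and 6), or 0.905-fold with a 95% interval of 0.741 to 1.11, and did not pass (limma, adjusted p = 0.670). Within slides the Bmp4 difference was 0.13, -0.04 and -0.36, so slide 1 had the opposite sign.

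Bmpr2 encodes the type II receptor of BMPs. It was at 106.2, 137.1 and 177.0 units in exercised mice and at 106.9, 126.3 and 140.0 units in sedentary mice. The lowest values of the groups were almost equal, and 3 exercised mice were above the highest sedentary mouse. Its fold was 1.11 (95% interval 0.935 to 1.32), and the difference did not pass (limma, adjusted p = 0.586). The sign was positive within each of the 3 slides (0.09, 0.34 and 0.11).

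Smad1 and Smad5 encode the SMADs that BMP receptors phosphorylate. On its brighter probe (A_51_P409260), Smad1 was at 509, 588 and 713 units in exercised mice and at 601, 641 and 760 units in sedentary mice. The groups overlapped, with 3 exercised mice below the lowest sedentary one and 0 above the highest. The fold was 0.906 (0.789 to 1.04, adjusted p = 0.507 in limma). A dimmer probe of Smad1 (A_52_P65108) gave 46.1, 52.0 and 59.8 units in exercised mice and 48.2, 62.1 and 66.3 units in sedentary mice, a fold of 0.873 (0.756 to 1.01, adjusted p = 0.349 over all probes). Both probes had a lower mean in exercised muscle, but over the 12 arrays their deviations from the group means were unrelated (r = -0.02), so they did not rank the mice alike.

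Smad5 stood at 1610, 1829 and 2062 units in exercised mice and at 1729, 1990 and 2044 units in sedentary mice on probe A_51_P107599. There was 1 exercised mouse above and 2 were below all sedentary mice. Its fold was 0.941 (0.837 to 1.06, limma adjusted p = 0.656), the narrowest interval of the 10 members. Probe A_51_P452207 gave 0.948 (0.833 to 1.08), again with unrelated deviations (r = -0.06). The remaining Smad5 probe was not well above background on any array (0 of 12) and gives no value.

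Id1 is the prototype BMP target among the ID genes. The 6 exercised mice had 499, 711, 735, 870, 942 and 986 units on probe A_51_P385786, at chr2:152563036-152563095 (mm9, plus strand). The 6 sedentary mice had 225, 365, 386, 388, 440 and 745 units. In all, 5 of 6 sedentary mice were below every exercised mouse, and sedentary mouse g2a5, at 745 units, was above 3 exercised mice. The means were 791 ± 180 units in exercised and 425 ± 173 units in sedentary mice (SD, n = 6 each).

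The fold of Id1 was 1.93 with a 95% interval of 1.34 to 2.80, a log2 difference of 0.95 (SE 0.25). Of all 16552 genes and unnamed probes, 134 had a log2 difference at least as high as that of Id1, itself included, while by p it stood at place 642. In limma the unadjusted p was 0.00205 and the adjusted p was 0.0530. A two-sided exact permutation test of this gene over all 924 ways to pick 6 of 12 mice gave p = 0.00866. That p is not adjusted for the number of genes, so it compares with the unadjusted limma p only. A second probe (A_52_P533809), whose sequence shares 50 of 60 bases with the first and is therefore no independent reading, gave 2.05-fold (1.29 to 3.26, adjusted p = 0.0969 over all probes). Its levels were 371, 628 and 1013 units in exercised mice and 145, 329 and 617 units in sedentary mice.

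The call of Id1 hung on the setting, while the sign was positive in each of the other settings run. Id1 passed with slide as a block (log2 difference 1.04, adjusted p = 0.0258, where 2.08% of all genes passed), and its difference was 0.91, 1.14 and 1.06 within slides 1, 2 and 3. On each slide every exercised mouse was above every sedentary mouse of that slide. Slide 1 had 1 exercised mouse and slide 2 had 1 sedentary mouse, so this is easily met there. The share of all genes of which it holds was not counted. Leaving out exercised mouse g1a1, the lowest of its group, gave an adjusted p of 0.0308, and leaving out sedentary mouse g2a5, the highest of its group, gave 0.0115. The array of g2a5 also had the most probes well above background (25229) and the highest 75th percentile (237 units) of the 12. Any other mouse left out gave no call, with adjusted p up to 0.112.

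**Figure D2:**
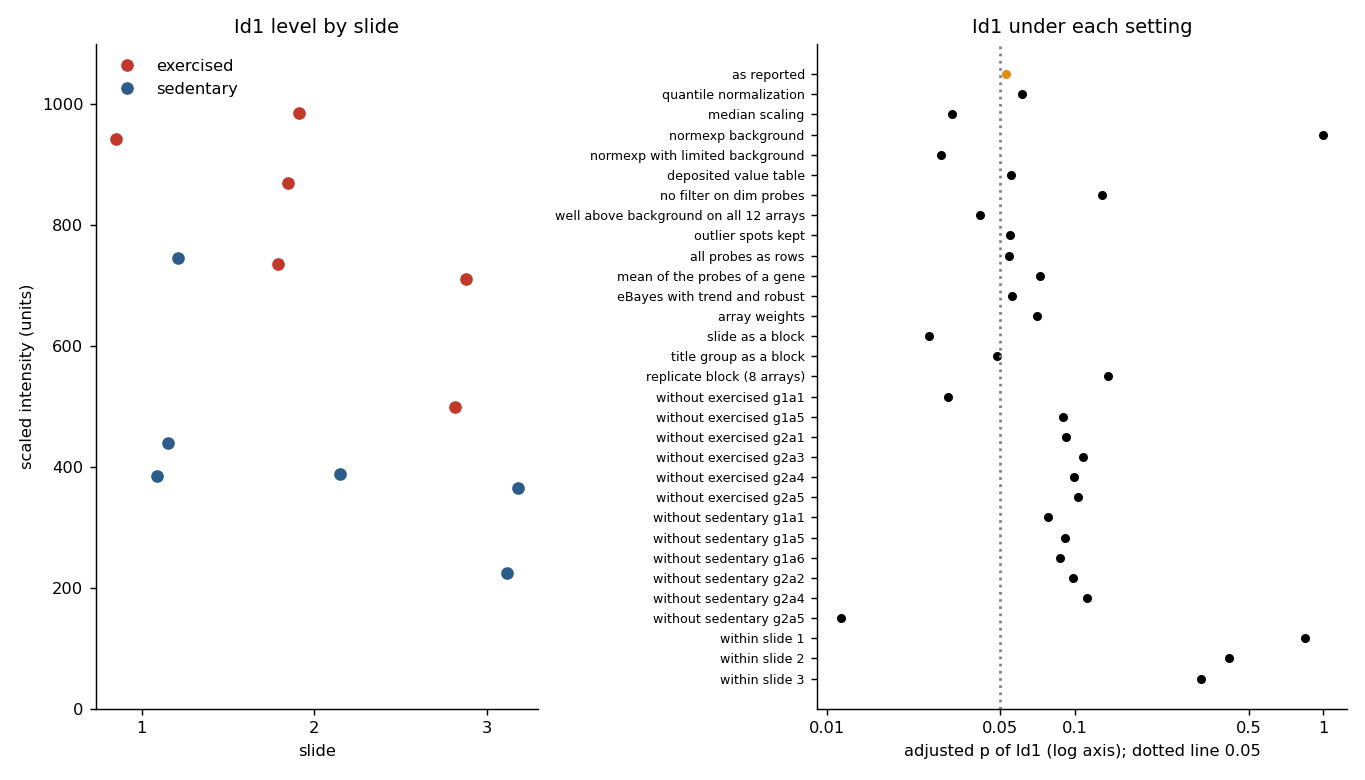
Left, scaled intensity of Id1 by slide, 1 point per mouse, exercised in red and sedentary in blue. Right, adjusted p of Id1 on a log axis under the settings used, with the reported fit in orange and a dotted line at 0.05. On each of the 3 slides the exercised mice lie above the sedentary mice of that slide, and the p values lie on both sides of the line. Slide 1 holds 1 exercised mouse and slide 2 holds 1 sedentary mouse.

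Id2 was read by 3 probes. On probe A_52_P240542 it was at 92.2, 118.7 and 165 units in exercised mice and at 89.2, 118.9 and 133 units in sedentary mice. The medians were all but equal, and 2 exercised mice were above all sedentary ones. Its log2 difference was 0.14 (SE 0.14, fold interval 0.889 to 1.36, limma adjusted p = 0.710). The coding probe printed above gave 1.11 (0.853 to 1.45), and the other, dim probe 0.964 (0.595 to 1.56). The 3 probes did not all share a sign.

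Id3, which is often active beside Id1 in vessels, was at 502, 711 and 810 units in exercised mice and at 455, 542 and 658 units in sedentary mice on its 1 probe. Here 4 of 6 exercised mice were above the highest sedentary mouse, and the lowest exercised mouse was within the sedentary range. The fold was 1.24 (1.02 to 1.52). It had an unadjusted p of 0.0347 and did not pass after adjustment (limma, adjusted p = 0.253), and the exact permutation p was 0.052. The difference was 0.56 and 0.60 within slides 1 and 2 but 0.03 within slide 3. Over the 12 arrays, the Id3 deviations from the group means went with the array's 75th percentile (r = 0.749, rho = 0.783, permutation p = 0.00458 and 0.00361, 0.137 and 0.108 after adjustment over 30 relations). Without the 2 arrays farthest out, r was 0.623. Its part in the difference was not tested.

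Id4 was read by 2 probes that differed in size of effect. The brighter one (A_52_P449871) had 46.4, 53.3 and 66.8 units in exercised mice and 35.6, 65.8 and 78.3 units in sedentary mice. The exercised values lay wholly within the sedentary range, and the fold was 0.951 (0.717 to 1.26, limma adjusted p = 0.902). The dimmer probe (A_51_P494430) had 12.2, 18.5 and 25.0 units in exercised mice and 20.1, 25.3 and 33.3 units in sedentary mice. Here 4 of 6 exercised mice were below the lowest sedentary mouse, and the fold was 0.700 (0.535 to 0.915, unadjusted p = 0.0132, adjusted p = 0.160 over all probes). With slide as a block this Id4 probe passed (log2 difference -0.65, adjusted p = 0.0330), as did both Id1 probes (adjusted p = 0.0262 and 0.0422), at a background of 1.93% of probes.

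Smad6, the BMP-directed inhibitor, was at a lowest of 165 and a highest of 265 units in exercised mice and at 157 and 218 units in sedentary mice, with means of 205 ± 33.8 and 180.5 ± 21.7 units (SD, n = 6 each). A single exercised mouse was above all sedentary mice, and 5 of 6 were above the sedentary median. The fold was 1.13 (0.955 to 1.34, limma adjusted p = 0.497), with differences of 0.18, 0.15 and 0.38 within the 3 slides.

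Smad7, the inhibitor shared by BMP and TGF-beta signalling, was at 41.1, 55.0 and 59.1 units in exercised mice and at 33.1, 41.4 and 55.8 units in sedentary mice. Below the lowest exercised mouse were 3 sedentary mice, and 2 exercised mice were above the highest sedentary one. The fold was 1.24 (1.01 to 1.51). With an unadjusted p of 0.0404 and an adjusted p of 0.276 in limma it did not pass, and the exact permutation p was 0.0584. The sign was positive within each slide (0.28, 0.15 and 0.43). With a normexp correction (its local background limited and 50 units added to each signal) in place of the scanner software's own, the difference was a log2 of 0.10, against 0.31 as reported. How much of this came from the added units and how much from the background was not tested.

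Counted by probe, 0 of the 16 measurable probes passed in limma, where 3.32% of all probes did, and 5 had an unadjusted p below 0.05. These were both Id1 probes, the Id3 and Smad7 probes, all higher in exercised muscle, and the dim Id4 probe, which was lower. The share of all probes at that unadjusted level was not counted, and among all genes it was 16.2%. The Id1 probes share 50 of 60 bases, so the count takes that reading more than once. Titles split the mice into sets 1 and 2. Set 1 held 2 exercised mice, g1a1 and g1a5, both on slide 3. The exercised mice of set 2 were on slides 1 and 2, so set and slide go together among exercised mice. A difference of the exercise effect between the sets passed in limma for 0 of the 10 members and for 0% of all genes, and at an unadjusted p below 0.05 for 0 members and 8.74% of genes. Smad5, with a difference of 0.10 in set 1 and -0.19 in set 2, and Smad6, with 0.44 in set 1 and -0.02 in set 2, came nearest. Each had an adjusted p of 0.570 for the interaction in limma.

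**Figure D3:**
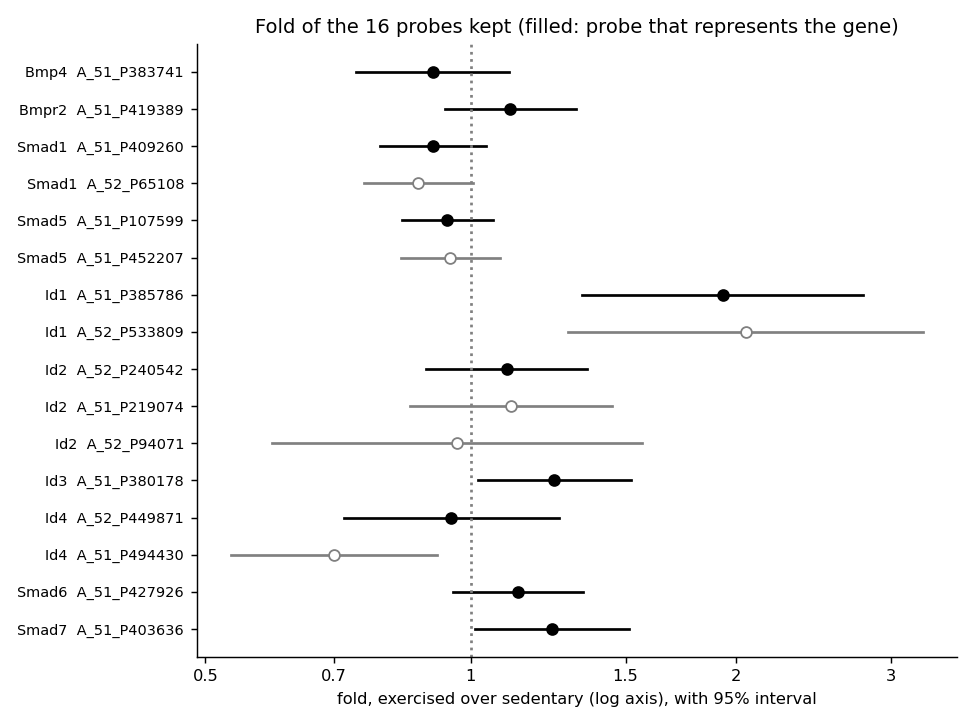
Fold of exercised over sedentary for each of the 16 measurable probes on a log axis, with the 95% interval of the limma model over all probes. Filled black points are the probes that represent their gene and open grey points the others. Only the intervals of both Id1 probes, the Id3 and Smad7 probes and the dim Id4 probe leave out 1.

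The members also varied from mouse to mouse, and this variation was shared by some. Deviations from the group means were compared over the 12 arrays for all 45 pairs of members. Smad1 and Bmpr2 moved together most closely (r = 0.891, rho = 0.909, permutation p = 0.00013 and 0.00015, adjusted p = 0.00585 and 0.00675 over 45 pairs). Without the 2 arrays farthest out in Smad1 r was 0.852, and with slide removed 0.935. Smad1 was read here on its brighter probe, whose deviations were unrelated to those of its dimmer probe (r = -0.02). The dimmer probe was not set against Bmpr2, so the relation holds for the brighter probe only. Id1 and Smad7 came next (r = 0.771, rho = 0.818, permutation p = 0.00261 and 0.00185, adjusted p = 0.0587 and 0.0416), with 0.725 without the 2 arrays farthest out in Id1 and 0.631 with slide removed. Id1 and Id3 were more loosely tied (r = 0.596, adjusted p = 0.291), and 1 of 45 pairs had an adjusted p below 0.05 by r. All values of an array share its RNA, slide and scaling.

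**Figure D4:**
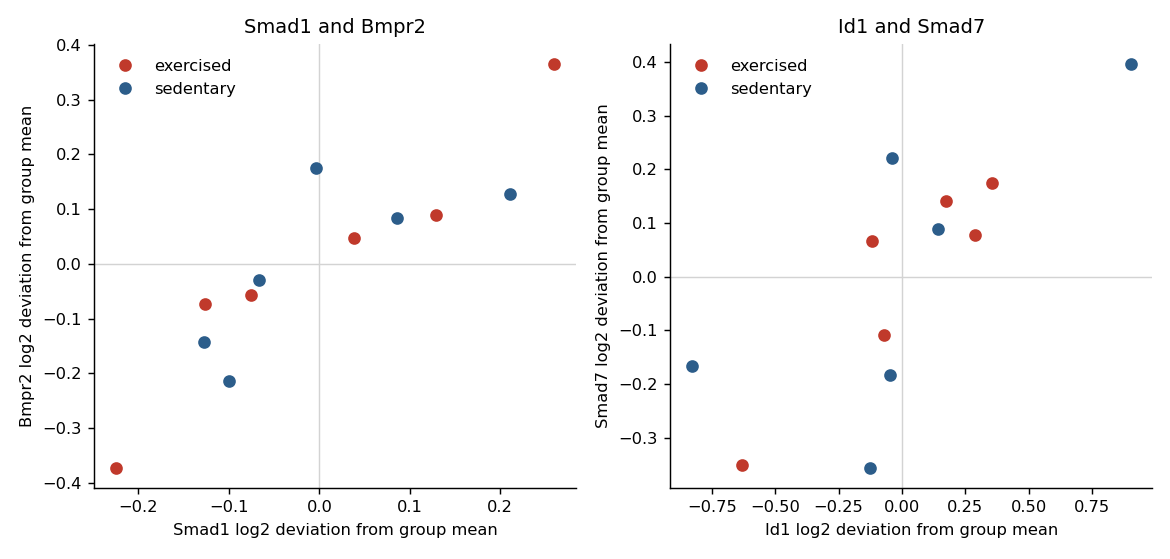
Log2 deviation from the group mean for Smad1 against Bmpr2 (left) and Id1 against Smad7 (right), 1 point per mouse, exercised in red and sedentary in blue. Mice high in Smad1 on its brighter probe were high in Bmpr2 in both groups (r = 0.891 over the 12 mice). The dimmer Smad1 probe is not shown. In the right panel the sedentary mouse at the upper right is g2a5.

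Genes whose deviations were most like those of a member were named by Pearson's r over the 12 arrays, as a description with no test. Each member was read on the probe that represents it. For Id1 they were Cog3 (r = 0.93), Adgrg1 (0.88) and Adam1a (0.88). Adgrg1 was itself higher in exercised muscle (log2 difference 0.81, limma adjusted p = 0.000956), while Cog3 had a difference of -0.03. Bmpr2 and Smad1 shared their nearest gene, Ccl25 (r = 0.957 and 0.920), followed by Irf5 and Syt12 for Bmpr2 and by Adarb1 (0.917) and Gtf2b for Smad1. Id2 had Emilin3 (0.866), Tle3 (0.851) and Herc6. Of these, Adarb1 (log2 difference 0.45, adjusted p = 0.0273) and Tle3 (0.47, adjusted p = 0.0167) were higher in exercised muscle. Nearest to Id3 were Synj2 (0.931), Cdk8 and Vegfa, and to Id4 Gem (0.931), Dusp1 and Hspa1l. The inhibitory SMADs had BC005537 (0.904), Otud7b and Luc7l for Smad6 and Gm7072 (0.937), Eogt and Ppp1r12b for Smad7. Smad5 had Gtf2h1 (0.890), Ppox and Ube2g2, and Bmp4 had Ppp1r16b (0.872), Plxnd1 and Cracr2b. Besides Adgrg1, Adarb1 and Tle3, none of these genes passed in the comparison of the groups.

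Markers of other cell types were set beside the members because the ID genes and Smad6 are also made by vessel cells. Of 14 endothelial markers, all measured on all 12 arrays, 8 had an unadjusted p below 0.05 in limma, a level reached by 16.2% of all genes. Of these, Flt1 passed as higher in exercised muscle, and Kdr, Egfl7 and Cldn5 passed as lower. With slide as a block Kdr passed (adjusted p = 0.0180) and the others did not (0.0554, 0.0750 and 0.0710 for Flt1, Egfl7 and Cldn5), and Egfl7 and Cldn5 were each called in 6 of 12 fits that left out a mouse. The median log2 difference of the 14 was -0.16, and the summed level ran from 14373.4 to 17389.5 units in exercised mice and from 13937.5 to 17757.1 units in sedentary mice. Bright probes weigh most in this sum and went both ways. Flt1 had means of 5033 units in exercised and 3772 units in sedentary mice, and Egfl7 had 2141 and 3158.5 units. The sum therefore says little of the dimmer markers. The mean log2 level of these markers was unrelated to Id1 over the arrays (r = -0.08, rho = 0.04, permutation p = 0.803 and 0.903). Of 10 smooth muscle and pericyte markers, Cnn1 was higher (1.88-fold, adjusted p = 0.00548) and Kcnj8 lower (0.648-fold, 0.0135), each of which also passed with slide as a block (0.0249 and 0.0292). Myh11 of the same list was higher (1.37-fold, 0.0422), but not with the block (0.134). The median of the 10 was -0.06. The 9 with a value on every array summed to 141131 to 164024 units in exercised mice. Their sums in sedentary mice were 139464 to 168363 units. Acta2 alone ran from 130250 to 153360 units in exercised and from 129900 to 159060 units in sedentary mice. These sums therefore mostly follow the Acta2 probe and say little of the other markers. Mean levels of this list were not set against the members. All 7 tendon markers had a mean higher in exercised muscle (median log2 difference 0.91). None passed, but 6 of the 7 had an unadjusted p below 0.05 in limma, against 16.2% of all genes. They summed to 12316.7 to 30039.7 units in exercised and 5406.78 to 16024.5 units in sedentary mice. Thbs4, which weighs most in these sums, ran from 6745.4 to 14956 units in exercised and 2912.6 to 9295.4 units in sedentary mice. Against Id1, the mean log2 level of the tendon markers gave r = 0.15 and rho = 0.36 (permutation p = 0.629 and 0.258). The array's 75th percentile gave r = 0.640 and rho = 0.524 with Id1 (permutation p = 0.0268 and 0.0835, 0.241 and 0.418 after adjustment over 30 relations), and r = 0.181 without the 2 arrays farthest out, so that relation rests on those arrays. Among the 30 relations of 10 members with these 3 measures, 0 had an adjusted p below 0.05 and 5 an unadjusted one. The 5 were Id3 and Id1 with the 75th percentile, Bmp4 and Smad1 with the endothelial markers, and Id4 with the tendon markers. With the endothelial markers r was 0.646 for Bmp4 and 0.597 for Smad1 (permutation p = 0.0230 and 0.0403). For Id4 with the tendon markers r was 0.606 (permutation p = 0.0356), and 0.122 without the 2 arrays farthest out. Among 4 measured satellite cell markers Sdc4 passed, at 1.34-fold (adjusted p = 0.0168, and 0.0180 with the block). None of 7 adipocyte, 8 fibroblast or 7 macrophage markers passed. The adipocyte marker Cidea ranged widely, at 876, 3876 and 8395 units in exercised mice and 291, 690 and 4779 units in sedentary mice (adjusted p = 0.258), and Ucp1, well above background in 5 of 6 exercised and 2 of 6 sedentary mice, had an adjusted p of 0.181. The part of these measures and markers in the differences of the members was not tested.

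The wider pathway was read from 7 lists of 94 genes, of which 76 were measured. The lists take in the TGF-beta branch and partners of ID proteins. In limma 8 were higher and 3 lower in exercised muscle, 14.5% of the 76 against 3.63% of all genes. The TGF-beta list held 2 of the higher genes, and the list of ID partners held 1 higher and 2 lower. With slide as a block, Bmp8a, Ltbp2 and Ets1 no longer passed. At an unadjusted p below 0.05 in limma there were 22, where 16.2% of all genes reached that level. The median log2 difference of the 76 was 0.02. The count of genes that passed ranged from 8 to 11 when each mouse was left out in turn. The lists were drawn up with results of these data known, and no test of a list was made.

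The other ligand genes held 1 of 7 that passed: Bmp8a was higher, at 30.2, 41.4 and 77.2 units in exercised mice and 8.82, 11.2 and 37.6 units in sedentary mice (adjusted p = 0.0223, and 0.0772 once slide was a block). Bmp8a was called in 9 of 12 fits that left out a mouse. It was well above background in 6 of 6 exercised and 3 of 6 sedentary mice, so no fold is given, and its exercised arrays alone were enough to pass the filter. Bmp2 did not pass (limma, adjusted p = 0.360). It was well above background in 5 of 6 exercised and 3 of 6 sedentary mice, so its fold is left out too. Of 10 receptors and coreceptors 0 passed and 2 had an unadjusted p below 0.05, the coreceptor gene Rgma (0.816-fold, adjusted p = 0.0604) and the type I receptor gene Bmpr1a (0.898-fold, 0.279). Among 14 extracellular antagonists and modulators, Chrdl2, whose product binds BMPs, was higher by a log2 of 0.58 (fold interval 1.27 to 1.76, adjusted p = 0.0105), called in 12 of 12 fits that left out a mouse, and Chrdl1 had 1.52-fold and an adjusted p of 0.0939.

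SMAD partners and regulators held 2 of 16 that passed, both higher. Skil, a corepressor of SMAD complexes, was at 213, 232 and 258 units in exercised mice and 131, 155 and 198 units in sedentary mice, so that the groups were apart (1.48-fold, 1.27 to 1.72, adjusted p = 0.00793). Tob2, of a family that restrains BMP signals in bone-forming cells, was 1.74-fold higher (1.36 to 2.22, adjusted p = 0.0173). Of 9 further BMP-SMAD targets, Atoh8 was 2.18-fold higher (1.64 to 2.88, adjusted p = 0.00575), with 94.0, 109.0 and 210 units in exercised mice against 45.2, 55.0 and 73.5 units in sedentary mice, again with no overlap. Heyl, which is also a Notch target, was lower at 0.624-fold (0.492 to 0.793, adjusted p = 0.0342) but passed in 3 of the 12 fits that left out a mouse. With slide as a block in limma, Heyl passed (adjusted p = 0.0249).

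Of 13 genes of the TGF-beta branch, Ccn2, a matrix-associated TGF-beta target, was 3.03-fold higher (2.02 to 4.53, adjusted p = 0.00585), and Ltbp2, which encodes a matrix protein related to the TGF-beta binding proteins, 1.67-fold (1.27 to 2.19, adjusted p = 0.0423). Blocking on slide gave Ltbp2 0.0552, and it was called in 2 of 12 fits without a mouse. Among 9 partners of ID proteins, Myog, which encodes the myogenic factor myogenin, was 2.30-fold higher (1.82 to 2.90, adjusted p = 0.00107), with 334, 377 and 595 units in exercised mice against 139, 185 and 215 units in sedentary mice. Ets2 was lower at 0.682-fold (0.608 to 0.765, adjusted p = 0.00189), and so was Ets1 at 0.657-fold (0.540 to 0.799, adjusted p = 0.0225), which became 0.0701 when slide was a block. Ets1 was called in 10 of 12 fits without a mouse. Ets1 and Ets2 encode transcription factors that ID proteins are known to bind in other cells.

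**Figure D5:**
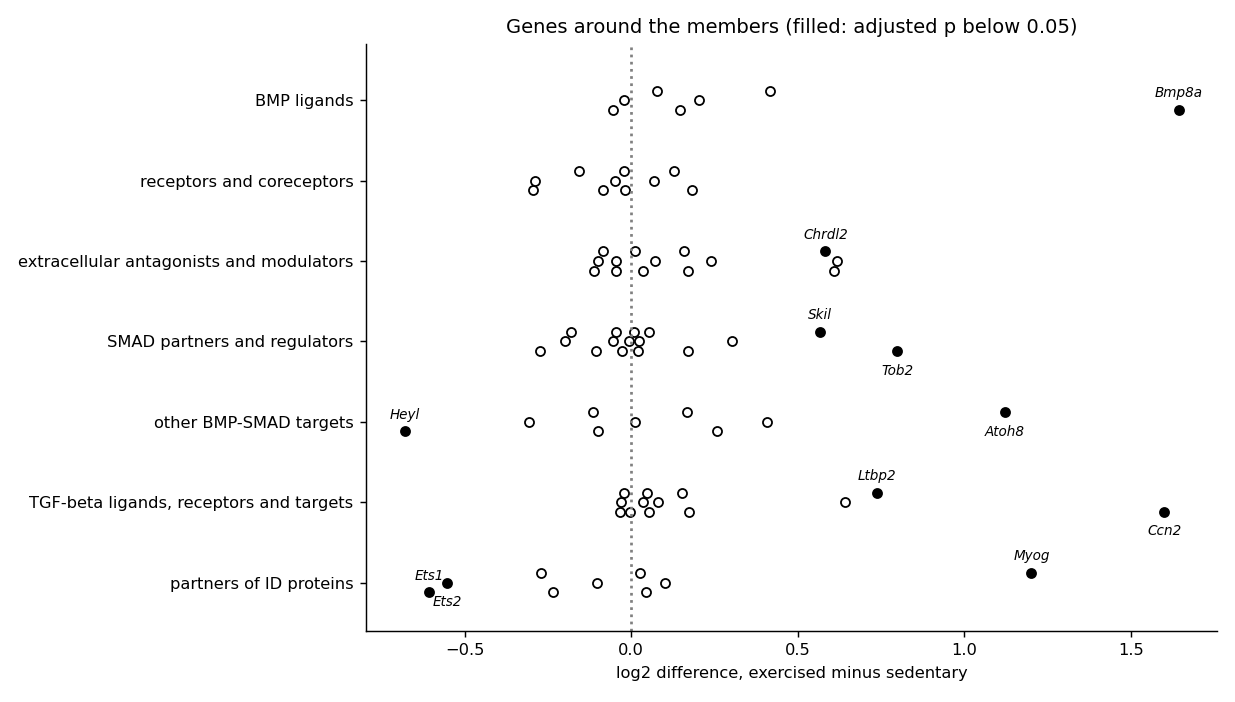
Log2 difference, exercised minus sedentary, of the measured genes in each of 7 lists, 1 point per gene, spread vertically for view. Filled points passed at an adjusted p below 0.05 and are named, and open points did not. The 8 filled points on the right and 3 on the left are spread over 6 of the 7 lists, with none among the receptors.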

How the data were processed

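Per the file headers, 12 of 12 arrays were read with Agilent Feature Extraction 10.5.1.1, while the submitters' processing notes name version 9.1. The processed signal in the deposited files is a linear intensity that the software had already corrected for background and for trends over the array, with no scaling from array to array. The deposited table of values holds the same intensity (100% of its single-spot values lay within 0.1%) and was an alternative source.

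Control and outlier spots were left out and spots of a probe averaged. The log2 signal was reduced by each array's 75th percentile, and levels were put back on the mean percentile, 197.71 units. Probes well above background on at least 6 of 12 arrays were kept (22916 of 41174). Over all gene probes, 221 array values were missing for outlier spots and dropped from the fits. Probes were named through RefSeq accessions (26876), otherwise by their file name, and a gene took its brightest kept probe. Exercised was set against sedentary with limma 3.58.1 (R 4.3.3, and data.table at version 1.17.8), without a block, and p-values were adjusted over all genes or all probes. The arrays, 6 in each group, limit the precision. Sequences were searched with Python and figures drawn with matplotlib.

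The genes named are all members, the called and 2 smallest-p genes of each pathway list, the called markers and the 2 smallest-p adipocyte markers, and the 3 genes most like each member. Members, lists and tests were chosen with earlier results of these data known. Each array is a different mouse per the labels. Correlations used 100000 permutations. Alternatives were other scalings, backgrounds, filters, probe rules, variance models, blocks and arrays left out. Normexp fits added an offset of 50 units, and one with limited background was added after seeing the data.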

Additional observations from a re-analysis of the deposited data

Results flagged for a closer look

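The dimmer Smad1 probe (A_52_P65108) had 1 mouse that stood apart. Sedentary mouse g2a4 was at 48.2 units, while the other 5 sedentary mice lay between 60.1 and 66.3 units. The gap to the nearest of them was 0.689 of the group's whole range on the log2 scale, above Dixon's critical value for 6 samples. This was 1 of 32 probe and group combinations looked at, and chance alone flags about 1 in 20. The brighter Smad1 probe showed no such mouse.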

How the results depend on the processing

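The count of members past the threshold, 0 as reported, was 1 (Id1 each time) with median scaling, with the filter of all 12 arrays, with slide or with title group as a block, at an adjusted p below 0.10, and with the normexp correction whose local background was limited. It was 0 to 1 when each mouse was left out in turn. Id1 had adjusted p of 0.0320 with median scaling, 0.0415 with the stricter filter, 0.0486 with the title group and 0.0288 with the limited normexp. It did not pass with quantile scaling, the deposited table, no filter, kept outlier spots, all probes, mean of probes, other variance models, array weights or within a slide. The count of member probes past the threshold, 0 as reported, was 3 with slide as a block. The 11 pathway genes became 7 with no filter, 7 with the limited normexp, and 0 within slide 1, 0 within slide 2 and 0 within slide 3, where few mice remain.

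With the plain normexp correction 0 members and 0 pathway genes passed, as did 0 of 16552 genes. On 4 arrays 58 spots in all had a local background above 1000 units, and on the same 4 arrays the fitted background mean lay between -1940 and -577, whereas it lay between -43.4 and 3.1 on all 12 once those spots were limited. The limited normexp was added after the data were seen.

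Numbers in the titles recur in both groups for 4 pairs of arrays. Deviations within these pairs correlated at 0.154, -0.187, 0.119 and 0.283, and 1 of 4 was below 0. The values of 0.154 and 0.283 belong to g1a1 and g2a5, whose arrays share slide 3 and slide 1. Arrays with unlike numbers were not compared in this way, so these values cannot decide whether the numbers mark a pairing. The main fit used no pairing, as the labels state none. With the replicate block on these 8 arrays, 0 members, 0 pathway genes and 29 of all genes passed, and Id1 had a log2 difference of 0.90 (adjusted p = 0.136).

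No member past the threshold reversed. Uncalled signs turned for Smad5 (0.12 with plain normexp, 0.02 within slide 3), Id2 (-0.01 with the replicate block), Id4 (0.02 without sedentary g2a5) and Bmp4 (0.13 within slide 1). Quantile scaling moved the 120 member levels by a median of 0.017 and at most 0.076 on the log2 scale.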
